A study of Mus musculus with 12 samples.

Results

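The 10 genes described here, Sfmbt2, Gab1, Jade1, Smoc1, Slc38a4, Mbnl2, Etv6, Tle3, Runx1 and Otx2, are imprinted in the early mouse embryo through histone H3 trimethylated at lysine 27 (H3K27me3) and not through DNA methylation. They were taken by name, as the probes of these genes among the 18327 gene symbols on the array (Jade1 stands on the array under its former name Phf17), and all 10 were found, on 16 probes. In this form of imprinting, polycomb proteins lay H3K27me3 on the genes in the growing oocyte, the mark silences the maternal copy after fertilisation, and the embryo expresses the paternal copy. Sfmbt2, Gab1, Jade1, Smoc1 and Slc38a4 are known to stay imprinted in mouse extraembryonic tissue, whereas the imprint of most genes of this kind fades after implantation. Xist, the long RNA that silences an X chromosome, is imprinted in the same way in preimplantation mouse embryos. Other work on mouse clones found this imprint absent from them. The arrays do not separate the alleles, so every value here is the total RNA of both copies.

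The embryos were single morulae, the compact ball of cells before the blastocyst, of the strain (C57BL/6 x DBA/2) F1, each on its own single-colour Agilent array. The siXist clones (4 embryos) were made by placing the nucleus of a Sertoli cell, a cell type of the testis that nurses the germ cells, into an oocyte, and were injected with an siRNA against Xist at the pronuclear stage. The siCont clones (4 embryos) were made likewise but injected with a control siRNA. The IVF embryos (4, of which 1 and 3 were male and 2 and 4 female) came from in vitro fertilisation and were not treated, so they differ from the clones in origin, injection and, for 2 of them, sex. All 8 clones were male, and all embryos were cultured in KSOM medium for 72 h after activation. The labels do not say whether the embryos of a class came from separate culture drops, donors or days, so p-values measure the spread between these embryos only.

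Each class lay on its own slide (3 slides), so an effect of the slide and one of the class cannot be told apart. The share of the 41174 probes whose signal stood well above background was 50.72% to 61.4% per array. Levels are log2 intensities relative to the 75th percentile of the same array, a difference of 1 being a doubling, and a level of one probe cannot be set against that of another. Xist, the siRNA target, lay between 1.41 and 2.53 in siXist clones, against 4.55 to 5.63 in siCont clones, a difference of -2.98 ± 0.49 (SE) with an adjusted p of 0.112 over 19038 features. In whole embryos, fewer cells and less RNA per cell cannot be told apart.

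The promoters of these genes are shown where the reference table gives a single start site, to show how many CpG dinucleotides, the sites of the other kind of imprint, lie at the starts of genes that H3K27me3 imprints. Of the 10 genes, 9 had a promoter in the RefSeq table (GRCm38.p6), with 20 start sites in all, and 3 of them, Mbnl2, Etv6 and Tle3, had 1 start site each. Each run below is the 250 bases upstream of that start on the plus strand, 5′ to 3′, with each CpG in capitals. They lie at chr14:120275419-120275668 for Mbnl2, chr6:134035450-134035699 for Etv6 and chr9:61372116-61372365 for Tle3.
Mbnl2: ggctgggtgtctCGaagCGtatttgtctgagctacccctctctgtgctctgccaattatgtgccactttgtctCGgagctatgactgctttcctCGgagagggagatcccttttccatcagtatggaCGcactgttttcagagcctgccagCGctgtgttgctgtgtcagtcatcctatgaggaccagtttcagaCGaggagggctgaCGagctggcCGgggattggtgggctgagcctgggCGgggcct
Etv6: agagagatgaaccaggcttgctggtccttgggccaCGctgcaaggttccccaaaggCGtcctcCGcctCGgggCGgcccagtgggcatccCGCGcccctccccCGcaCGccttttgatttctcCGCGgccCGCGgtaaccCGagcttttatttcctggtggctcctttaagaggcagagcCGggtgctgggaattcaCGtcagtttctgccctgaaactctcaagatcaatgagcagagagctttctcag
Tle3: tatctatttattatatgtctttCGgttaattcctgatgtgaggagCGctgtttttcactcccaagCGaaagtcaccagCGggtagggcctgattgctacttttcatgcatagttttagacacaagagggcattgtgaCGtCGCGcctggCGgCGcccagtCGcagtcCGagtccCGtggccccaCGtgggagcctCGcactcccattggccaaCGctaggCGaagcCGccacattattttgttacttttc
The Mbnl2 window held 10 CpG, a number that 37.8% of the 32851 windows of this length in the table reached. The Etv6 window held 16 CpG (reached by 25.4% of windows) and the Tle3 window 17 (reached by 23.5%). Over all 20 windows of the 9 genes the CpG number ran between 2 and 35 with a median of 12, beside a median of 6 over all windows. The counts describe the letters only, since no chromatin or methylation was measured in these embryos.

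All 10 genes were detected: the probe that stands for each was well above background on 4 of 4 IVF arrays, and on at least 3 of 4 arrays of both clone classes. All 10 therefore entered the test across 19038 features (limma, Benjamini-Hochberg, called under 0.05). Mbnl2 was the only one of the 10 that was called, and it was higher in both clone classes than in IVF embryos. The plot of levels by array shows each gene in each embryo.

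**Figure D1:**
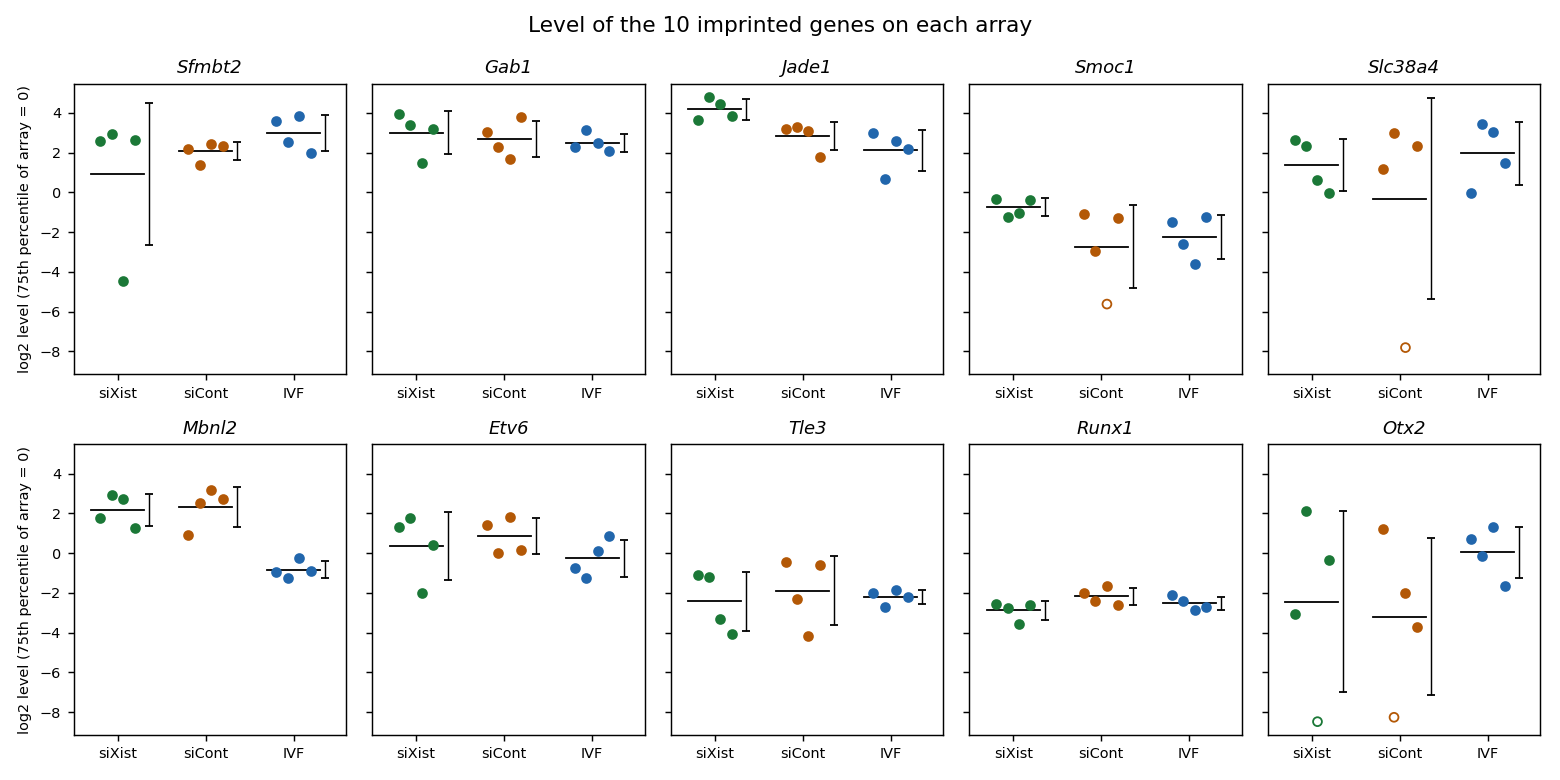
Log2 level (75th percentile of the array = 0) of the 10 genes in siXist clones, siCont clones and IVF embryos, 1 point per embryo in the order of the replicate numbers. Lines are means and bars are SD (n = 4). Open points were not well above background. The 8 clone values of Mbnl2 (0.90 to 3.18) all lie above the 4 IVF values (-1.26 to -0.24). Otx2 runs between -8.48 and 2.11 in the siXist clones alone.

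Mbnl2 encodes a muscleblind-like RNA-binding protein that regulates alternative splicing. Its level was 1.78, 2.92, 2.74 and 1.26 in siXist clones 1 to 4, 0.90, 2.51, 3.18 and 2.75 in siCont clones 1 to 4, and -0.93, -1.26, -0.24 and -0.89 in IVF embryos 1 to 4. Every clone therefore stood above every IVF embryo of either sex, while the clone classes overlapped. The mean was 2.18 ± 0.79 in siXist clones, 2.33 ± 1.0 in siCont clones and -0.83 ± 0.43 in IVF embryos (SD, n = 4 each). The difference was 3.01 ± 0.56 (SE) between siXist clones and IVF embryos, an 8.04-fold higher intensity (95% interval 1.77 to 4.25 in log2, adjusted p = 0.0498). It was 3.17 ± 0.56 between siCont clones and IVF embryos, an 8.98-fold higher intensity (1.92 to 4.41, adjusted p = 0.0488). Over the 8 clones it was 3.09 ± 0.48, or 8.5-fold (adjusted p = 0.0198). Between the clone classes the difference was -0.16 (95% interval -1.4 to 1.08, adjusted p = 0.921).

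Mbnl2 was higher in clones than in IVF embryos in every alternative setting run, while the size of the difference and its call changed. In 27 alternative settings siXist clones exceeded IVF embryos by 2.76 to 3.65, with adjusted p between 0.0283 and 0.26, and the call held in 6. For siCont clones the difference ran between 2.07 (the authors' value table) and 3.64, with adjusted p between 0.0188 and 0.243, and the call held in 5. Of the 12 settings that left out 1 array, the call for siXist clones held in 2 (without siCont clone 1 or siCont clone 3) and that for siCont clones in 1 (without siCont clone 1). For all clones together it ran between 2.53 and 3.33, with adjusted p between 0.00915 and 0.188, and the call held in 18, among them each setting that left out 1 clone array. It was lost on leaving out any IVF array (adjusted p 0.107, 0.0702, 0.0709 and 0.0626 without embryos 1 to 4) and with the 2 male IVF embryos alone as the reference, where the difference was 2.84 (adjusted p = 0.188).

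**Figure D2:**
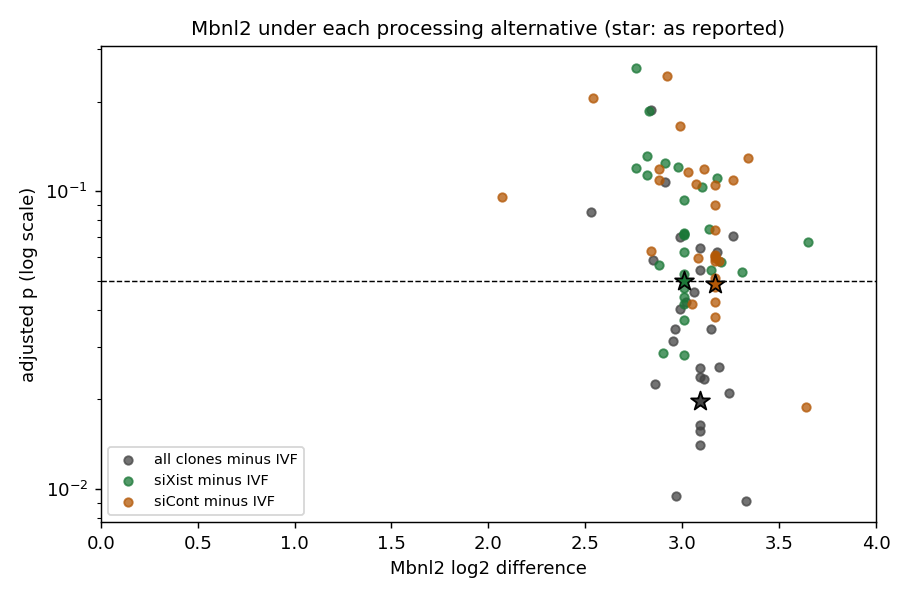
Log2 difference of Mbnl2 (x axis) against its adjusted p on a log scale (y axis) for siXist clones, siCont clones and all clones, each minus IVF embryos. Each point is 1 alternative setting, the stars are the values as reported, and the dashed line is 0.05. All differences lie between 2.07 and 3.65, and the points fall on both sides of the line.

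A further Mbnl2 probe was dimmer and more variable. It gave -0.31, 3.24, 3.09 and 0.05 in siXist clones, -0.55, -2.04, -0.85 and -0.05 in siCont clones, and -2.57, -5.8, -1.91 and -0.83 in IVF embryos, of which embryo 2 was not well above background. All 4 siXist clones again stood above all IVF embryos, but siCont clone 2 and siCont clone 3 fell below the highest IVF embryo. The differences from IVF embryos were 4.29 ± 1.15 for siXist clones (adjusted p = 0.168, here and for the other dimmer probes adjusted over probes), 1.9 ± 1.15 for siCont clones (0.53) and 3.1 ± 1.0 for all clones (0.233). With the mean of both probes in place of the brighter one, the adjusted p of Mbnl2 was 0.0673 for siXist clones, 0.206 for siCont clones and 0.0644 for all clones.

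Jade1 encodes a PHD-finger protein that belongs to a complex acetylating histones. Its level was 3.65, 4.81, 4.45 and 3.83 in siXist clones, 3.17, 3.29, 3.11 and 1.77 in siCont clones, and 3.01, 0.68, 2.58 and 2.18 in IVF embryos. The siXist clones were above every embryo of both other classes, and the siCont clones overlapped the IVF embryos. The mean was 4.18 ± 0.54 in siXist clones, 2.84 ± 0.71 in siCont clones and 2.11 ± 1.01 in IVF embryos (SD, n = 4 each). The difference of siXist clones from IVF embryos was 2.07 ± 0.48 (95% interval 1.0 to 3.15, unadjusted p = 0.00157, adjusted p = 0.11), and the adjusted p ran between 0.063 and 0.617 in the alternatives. From siCont clones it was 1.35 ± 0.48 (0.27 to 2.42, unadjusted p = 0.0191, adjusted p = 0.364). Neither passed the threshold. Between siCont clones and IVF embryos it was 0.72 ± 0.48 (-0.35 to 1.8, adjusted p = 0.553), and -0.37 in the authors' value table, where the median of all features was -1.13.

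Smoc1 encodes a secreted calcium-binding protein of the extracellular matrix. Its level was -0.35, -1.24, -1.05 and -0.39 in siXist clones, -1.10, -2.95, -5.62 and -1.27 in siCont clones, and -1.48, -2.61, -3.61 and -1.25 in IVF embryos. The siXist clones lay in a narrow band just above the IVF range, and siCont clone 3, the lowest value, was not well above background. The difference of siXist clones was 1.48 ± 0.95 from IVF embryos (95% interval -0.63 to 3.59, adjusted p = 0.545) and 1.98 ± 0.95 from siCont clones (-0.13 to 4.09, adjusted p = 0.428). That of siCont clones from IVF embryos was -0.5 ± 0.95 (adjusted p = 0.851), and 0.46 without siCont clone 3. None of the 3 was called.

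Sfmbt2 encodes a polycomb-group protein with MBT repeats that is needed for the mouse placenta. It gave 2.57, 2.94, -4.46 and 2.65 in siXist clones, 2.17, 1.39, 2.42 and 2.35 in siCont clones, and 3.58, 2.52, 3.86 and 1.96 in IVF embryos. Apart from siXist clone 3, every embryo lay between 1.39 and 3.86, with overlapping classes. The differences were -2.06 ± 1.42 (siXist minus IVF, 95% interval -5.22 to 1.11, adjusted p = 0.571), -0.9 ± 1.42 (siCont minus IVF, -4.06 to 2.26, adjusted p = 0.82) and -1.15 ± 1.42 (siXist minus siCont, -4.32 to 2.01, adjusted p = 0.743). Without siXist clone 3 the first became -0.26 and the last 0.64. Its other 2 probes were well above background on 0 and 2 of 12 arrays and were not used.

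Gab1 encodes a docking protein that relays signals of receptor tyrosine kinases. It gave 3.97, 3.38, 1.5 and 3.20 in siXist clones, 3.02, 2.30, 1.67 and 3.78 in siCont clones, and 2.28, 3.14, 2.5 and 2.08 in IVF embryos. The 3 classes overlapped throughout, with means of 3.01 ± 1.06 in siXist clones, 2.69 ± 0.91 in siCont clones and 2.5 ± 0.46 in IVF embryos (SD, n = 4 each). The differences were 0.51 ± 0.61 (siXist minus IVF, 95% interval -0.85 to 1.87, adjusted p = 0.752), 0.19 ± 0.61 (siCont minus IVF, -1.17 to 1.55, adjusted p = 0.915) and 0.33 ± 0.61 (siXist minus siCont, -1.04 to 1.69, adjusted p = 0.838).

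Slc38a4 encodes a transporter of neutral amino acids that is expressed in the placenta. On its brighter probe it gave 2.65, 2.36, 0.61 and -0.02 in siXist clones, 1.17, 3.01, -7.81 and 2.36 in siCont clones, and -0.04, 3.43, 3.05 and 1.46 in IVF embryos. Only siCont clone 3, not well above background, left the range shared by the classes. The difference of siCont clones from IVF embryos was -2.29 ± 2.11 (95% interval -6.98 to 2.4, adjusted p = 0.678), and 0.21 without that clone. That of siXist clones from IVF embryos was -0.58 ± 2.11 (adjusted p = 0.932), and from siCont clones it was 1.72 ± 2.11 (adjusted p = 0.743). The SE is shared over all classes and so includes siCont clone 3. The SD was 1.3 in siXist clones and 1.59 in IVF embryos.

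The dimmer Slc38a4 probe differed in direction. It gave -1.91, -2.17, -1.97 and -4.06 in siXist clones, -2.75, -2.42, -7.53 and -1.33 in siCont clones, and -4.19, -4.85, -3.92 and -4.51 in IVF embryos. On this probe 3 of 4 clones of each class were above every IVF embryo, and the remaining one was inside or under the IVF range. The differences from IVF embryos were 1.84 ± 1.16 for siXist clones (adjusted p = 0.553) and 0.87 ± 1.16 for siCont clones (adjusted p = 0.794), against -0.58 and -2.29 on the brighter probe, and none was called.

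**Figure D3:**
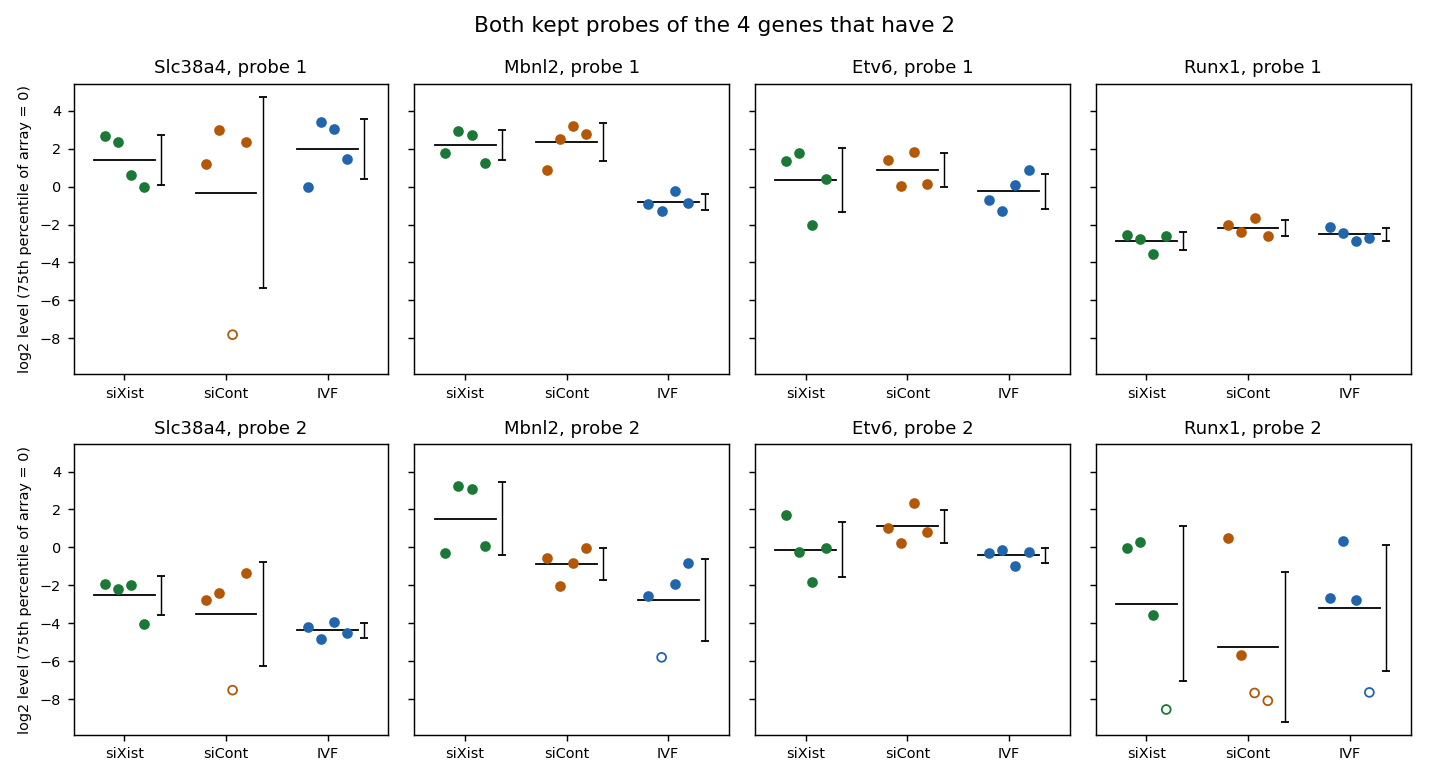
Log2 level (75th percentile of the array = 0) on both kept probes of Slc38a4, Mbnl2, Etv6 and Runx1 (probe 1, top, stands for the gene; probe 2, bottom) in siXist clones, siCont clones and IVF embryos, 1 point per embryo. Lines are means, bars SD (n = 4), and open points were not well above background. The means of both Mbnl2 probes are higher in both clone classes than in IVF embryos, and the 2 probes of Slc38a4 order the classes differently.

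Etv6 encodes an ETS-family transcriptional repressor that acts in blood development. It gave 1.33, 1.76, -2.03 and 0.39 in siXist clones, 1.41, 0.03, 1.82 and 0.16 in siCont clones, and -0.73, -1.26, 0.11 and 0.87 in IVF embryos. The classes overlapped, and the differences were 0.62 ± 0.86 (siXist minus IVF, adjusted p = 0.79), 1.11 ± 0.86 (siCont minus IVF, adjusted p = 0.611) and -0.49 ± 0.86 (siXist minus siCont, adjusted p = 0.823). On its dimmer probe the 4 siCont clones (1.01, 0.25, 2.35 and 0.81) all stood above the IVF embryos (-0.32, -0.15, -0.98 and -0.22). That difference was 1.52 ± 0.71 and was not called (adjusted p = 0.409).

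Tle3 encodes a Groucho-family corepressor that transcription factors recruit. It gave -1.11, -1.20, -3.31 and -4.09 in siXist clones, -0.43, -2.31, -4.18 and -0.62 in siCont clones, and -2.02, -2.72, -1.86 and -2.23 in IVF embryos. Each clone class straddled the IVF embryos, whose SD was 0.37, against 1.5 in siXist clones and 1.75 in siCont clones. The differences were -0.22 ± 0.92 (siXist minus IVF, 95% interval -2.28 to 1.84, adjusted p = 0.944), 0.32 ± 0.92 (siCont minus IVF, -1.73 to 2.38, adjusted p = 0.904) and -0.54 ± 0.92 (siXist minus siCont, -2.6 to 1.52, adjusted p = 0.82).

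Runx1 encodes a transcription factor required for the first blood stem cells. It gave -2.55, -2.78, -3.56 and -2.62 in siXist clones, -2.03, -2.39, -1.64 and -2.60 in siCont clones, and -2.11, -2.43, -2.86 and -2.70 in IVF embryos. It varied least of the 10 within classes (SD 0.41), and its intervals were the narrowest. The difference was -0.71 ± 0.36 between siXist and siCont clones (95% interval -1.51 to 0.09, adjusted p = 0.445), -0.35 ± 0.36 between siXist clones and IVF embryos (-1.15 to 0.45, adjusted p = 0.707) and 0.36 ± 0.36 between siCont clones and IVF embryos (-0.44 to 1.16, adjusted p = 0.7). A further Runx1 probe, for another RefSeq transcript, ran between -8.55 and 0.47 and was well above background on 3 siXist, 2 siCont and 3 IVF arrays, so no difference is read from it.

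Otx2 encodes a homeodomain factor of the epiblast and the head. Its probe, printed in 10 spots on each array, gave -3.04, 2.11, -8.48 and -0.36 in siXist clones, 1.21, -8.26, -2.01 and -3.73 in siCont clones, and 0.71, -0.16, 1.31 and -1.66 in IVF embryos. In each clone class 1 embryo was not well above background (siXist clone 3 and siCont clone 2), and another reached 2.11 or 1.21. The differences were -2.5 ± 2.35 (siXist minus IVF, adjusted p = 0.682), -3.25 ± 2.35 (siCont minus IVF, adjusted p = 0.585) and 0.75 ± 2.35 (siXist minus siCont, adjusted p = 0.91). The 95% interval for siCont clones against IVF embryos ran between -8.48 and 1.98.

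**Figure D4:**
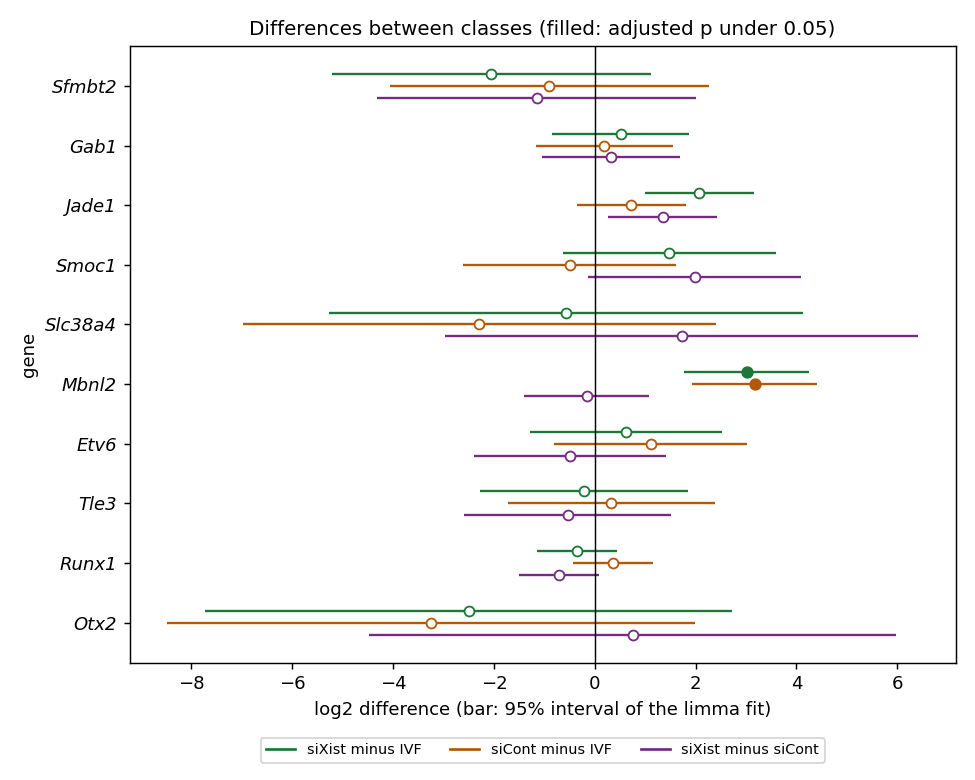
Log2 difference (x axis) of each of the 10 genes for siXist minus IVF, siCont minus IVF and siXist minus siCont, with the 95% interval of the limma fit as a bar. Filled points have an adjusted p under 0.05. Mbnl2 is filled against IVF in both clone classes, at 3.01 and 3.17, and Otx2 and Slc38a4 have the widest intervals.

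Counted over the 10 genes, siXist clones against IVF embryos gave 1 call (Mbnl2), beside 0.609% of all 19038 features, and 2 genes (Mbnl2 and Jade1) with an unadjusted p under 0.05, beside 12.8%. The fitted difference was higher in siXist clones for 5 of the 10 and lower for 5, beside 41.3% of features higher. Jade1, Smoc1 and Mbnl2 were higher without overlap (3 of 10, beside 3.92%) and none was lower without overlap (beside 7.4%). For Smoc1 this rests on the lowest siXist value of -1.24 against the highest IVF value of -1.25. The median difference of the 10 was 0.15, and that of all features -0.17.

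The siCont clones against IVF embryos gave 1 call (Mbnl2), beside 0.41%, and Mbnl2 was also the only one with an unadjusted p under 0.05, beside 13.4%. The difference was higher for 6 of the 10 and lower for 4, beside 47.9% of features higher. Mbnl2 alone was higher without overlap (beside 5.46%), and none was lower without overlap (beside 4.77%). The median was 0.26 over the 10 and -0.04 over all features. These 2 comparisons share the IVF embryos.

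Between siXist and siCont clones none of the 10 was called, beside 0.0105% of features (2 features), and Jade1 alone had an unadjusted p under 0.05, beside 12.1%. The difference was higher in siXist clones for 5 of the 10 and lower for 5, beside 42.8% higher. Jade1 was the 1 gene higher without overlap (beside 1.93%), and none was lower (beside 4.71%). The median was 0.08 over the 10 and -0.15 over all features.

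For all clones against IVF embryos, Mbnl2 was the 1 gene called (beside 0.924%), and Mbnl2 and Jade1 had an unadjusted p under 0.05 (beside 12.9%). The difference was higher for 7 of the 10 and lower for 3 (beside 44.4% higher). Mbnl2 was the 1 gene higher without overlap (beside 1.1%) and none was lower (beside 2.08%). The median was 0.2 over the 10 and -0.09 over all features.

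The spread between embryos of a class differed widely among the genes. Otx2 (pooled SD within classes 3.55, at the 99.1 percentile of all features), Slc38a4 (3.15, 97.5) and Sfmbt2 (2.15, 86.3) were the most variable. Smoc1 (1.39), Tle3 (1.35) and Etv6 (1.23) came next, then Gab1 (0.85), Jade1 (0.78) and Mbnl2 (0.78), with Runx1 (0.41, 13.2) last. The median SD was 1.29 over the 10 genes and 0.79 over all features. The 3 highest rested on single or dim values. Sfmbt2 had an SD of 3.59 in siXist clones (clone 3 at -4.46), against 0.47 in siCont clones and 0.89 in IVF embryos. Slc38a4 had 5.05 in siCont clones (clone 3 at -7.81, not well above background), against 1.3 in siXist clones and 1.59 in IVF embryos. Otx2 had 1 embryo not well above background in each clone class (SD 4.54 in siXist, 3.95 in siCont) and 1.29 in IVF embryos.

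For every gene, 1 array of each class is the lowest and 1 the highest, so such counts alone do not set these genes apart. The share of all features was counted for the lowest value only. The arrays of siXist clones 1 and 2 were each the highest of their class for 5 of the 10. That of IVF embryo 3 was the highest for 4, and that of IVF embryo 2 the lowest for 4 (beside 24.6% of all features). On the array of siXist clone 3, Sfmbt2, Gab1, Etv6, Runx1 and Otx2 (5 of 10) had the lowest value of their class, as had 47.5% of all features. On that of siCont clone 3, Gab1, Smoc1, Slc38a4 and Tle3 were the lowest and Sfmbt2, Mbnl2, Etv6 and Runx1 the highest, while 21.8% of all features were lowest there. With both of these arrays left out, which was chosen after their values were seen, Mbnl2 differed from IVF embryos by 2.82 in siXist clones (adjusted p = 0.113), 2.88 in siCont clones (0.119) and 2.85 in all clones (0.0588).

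Over the 45 pairs of the 10 genes, the correlation of their deviations from the class means over 12 arrays had a median of 0.08, with 25 pairs above 0 and 19 below. The highest were Sfmbt2 with Otx2 (0.75), Sfmbt2 with Etv6 (0.73) and Slc38a4 with Tle3 (0.69), and the lowest was Smoc1 with Mbnl2 (-0.62). Sfmbt2, Etv6 and Otx2 are among the 5 genes at their lowest in siXist clone 3. Outside the group, the 1 gene most like each by Pearson correlation over the 12 arrays, among 12988 genes compared, was Cops5 for Sfmbt2 (0.96), Mypop for Gab1 (0.9), 4930471G03Rik for Jade1 (0.9) and Nos3 for Smoc1 (0.94). It was Plxdc2 for Mbnl2 (0.95), Cd300lb for Etv6 (0.91), Fgfr2 for Tle3 (0.94), Kcnh4 for Runx1 (0.96) and Bmp10 for Otx2 (0.93). Each is the highest of many, describes these 12 arrays only, and shares their slides.

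Genes imprinted through germline DNA methylation were set beside these. Of 15 tested genes expressed from the paternal copy in this way, 1 was called in siXist clones against IVF embryos (beside 0.609% of features). It was Impact, a regulator of translation under amino acid starvation (2.43 ± 0.39, adjusted p = 0.027). In siCont clones against IVF embryos 0 were called (beside 0.41%), and 7 had an unadjusted p under 0.05 (beside 13.4%). In siXist clones 7 were higher and 8 lower, with 1 higher and 3 lower without overlap (beside 3.92% and 7.4%). In siCont clones 8 were higher and 7 lower, with 4 higher and 2 lower without overlap (beside 5.46% and 4.77%). Impact averaged 3.64 ± 0.34 in siXist clones, 3.16 ± 0.7 in siCont clones and 1.22 ± 0.84 in IVF embryos (SD, n = 4 each), and its difference in siCont clones was 1.95 (adjusted p = 0.0761). Of 12 tested genes expressed from the maternal copy, 0 were called in any of the 4 contrasts (beside 0.0105% to 0.924% of features). An unadjusted p under 0.05 was reached by 1 or 2 of them (beside 12.1% to 13.4%).

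The close relatives of the 10 genes and the enzymes of the mark gave no call. Of 12 tested paralogs, 0 were called in any of the 4 contrasts (beside 0.0105% to 0.924% of features). An unadjusted p under 0.05 was reached by 0 or 1 (beside 12.1% to 13.4%). In siCont clones against IVF embryos, the paralogs with the smallest p were Tle1 (-2.37 ± 1.08, adjusted p = 0.384), Runx3 (0.72 ± 0.4, adjusted p = 0.472) and Runx2 (-2.06 ± 1.34, adjusted p = 0.542). Runx2 was above background on 1 siXist, 1 siCont and 3 IVF arrays, so it passed the filter through the IVF embryos alone. Of 12 subunits and demethylases that write or erase H3K27me3, 0 were called and none was separated without overlap. Under an unadjusted p of 0.05 were 0 or 1 (beside 12.1% to 13.4% of features). In siCont clones against IVF embryos, Kdm6a, an X-linked demethylase of the mark, gave -0.49 ± 0.37 (adjusted p = 0.602) and Phf1, a partner of the polycomb complex, 0.57 ± 0.37 (adjusted p = 0.54).

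Markers of other cells and of the lineages of the embryo were read on the same arrays, and their part in the results was not tested. A summed level is set mostly by the brightest probes of a list, so it does not speak for each marker. The summed level of 12 Sertoli cell markers, with the 75th percentile as 1, ran between 2.03 and 5.16 in siXist clones, 1.94 and 6.11 in siCont clones, and 3.33 and 4.83 in IVF embryos. Amh and Inha were above background on no array, and 0 of 8 tested were called. Against IVF embryos, 4 in siXist clones (beside 12.8% of features) and 1 in siCont clones (beside 13.4%) had an unadjusted p under 0.05. In siXist clones 4 of 8 were higher and 4 lower than in IVF embryos, with Cldn11 and Trf (2 of 8, beside 3.92% of features) higher without overlap. Cldn11 was above background on 4 siXist, 1 siCont and 0 IVF arrays, so it passed the filter through siXist clones alone. Sox9 was lower in siXist clones than in IVF embryos (-5.44 ± 1.95, adjusted p = 0.28). The 7 cumulus markers summed to 0.114 to 1.26 in siXist clones, 0.218 to 2.13 in siCont clones and 0.137 to 0.52 in IVF embryos. Of 4 tested, 0 were called. Against IVF embryos, 0 in siXist clones (beside 12.8% of features) and 2 in siCont clones (beside 13.4%) had an unadjusted p under 0.05. The 2 were Ptx3 (3.01 ± 0.67) and Star (-1.6 ± 0.72), in opposite directions. Ptx3 was above background on 4 siCont, 0 siXist and 1 IVF arrays, so it passed the filter through siCont clones alone. Star, above background on 3 siXist, 1 siCont and 2 IVF arrays, passed through siXist clones alone. Oocyte markers summed to 4.35 to 10.4 in siXist clones, 10.8 to 13.9 in siCont clones and 4.62 to 9.57 in IVF embryos, and Oosp1 was called higher in siXist clones than in IVF embryos (2.49 ± 0.44, adjusted p = 0.0414). Of 8 tested oocyte markers, 5 were higher and 3 lower than in IVF embryos in each clone class. In siXist clones 1 (Oosp1) was higher without overlap (beside 3.92% of features), while Gdf9 differed by -0.15. In siCont clones 3 (Zp2, Gdf9 and Oosp1) were higher without overlap than in IVF embryos (beside 5.46%). Under an unadjusted p of 0.05 were 1 in siXist clones (beside 12.8%) and 3 in siCont clones (beside 13.4%).

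Inner cell mass markers (8) summed to 69.9 to 121 in siXist clones, 69.4 to 142 in siCont clones and 147 to 164 in IVF embryos. The sum was lower in every clone than in any IVF embryo, but bright markers such as Zfp42 (mean 6.06 in IVF embryos) weigh most in it. By marker, 7 of 8 were lower in siXist clones and 8 of 8 in siCont clones, with 0 called. Under an unadjusted p of 0.05 were 2 in siXist clones (beside 12.8% of features) and 4 in siCont clones (beside 13.4%). Lower without overlap were 4 of 8 in siXist clones (beside 7.4% of features) and 2 of 8 in siCont clones (beside 4.77%). Those in siXist clones were Sox2, Esrrb, Sall4 and Zfp42. Sox2 was above background on 1 siXist, 1 siCont and 4 IVF arrays. It passed the filter through the IVF embryos alone, which favours a lower value in clones. The 12 trophectoderm markers summed to 149 to 317 in siXist clones, 198 to 282 in siCont clones and 157 to 273 in IVF embryos. Among them Eomes was called lower in siXist clones than in IVF embryos (-5.91 ± 0.99, adjusted p = 0.0343). It was above background on 1 of 4 siXist, 1 of 4 siCont and 4 of 4 IVF arrays. Eomes thus passed the filter through the IVF embryos alone, which favours a lower value in clones. The size of its difference is a distance to readings near background (mean -7.09 in siXist clones). Of 11 tested, 3 were higher and 8 lower than in IVF embryos in siXist clones, and 7 higher and 4 lower in siCont clones. Cdx2 and Eomes (2 of 11) were lower without overlap in both clone classes (beside 7.4% of features in siXist and 4.77% in siCont clones). Krt18 was higher by 0.93 ± 0.42 in siXist clones (adjusted p = 0.391) and 1.08 ± 0.42 in siCont clones (0.316). Under an unadjusted p of 0.05 were 1 marker in siXist clones (beside 12.8% of features) and 3 in siCont clones (beside 13.4%). Primitive endoderm markers (8) summed to 102 to 197 in siXist clones, 74.5 to 204 in siCont clones and 191 to 270 in IVF embryos. Of 5 tested, 0 were called. Against IVF embryos, 2 in siXist clones (beside 12.8% of features) and 1 in siCont clones (beside 13.4%) had an unadjusted p under 0.05. Sox17, above background on 1 siXist, 1 siCont and 3 IVF arrays, passed the filter through the IVF embryos alone. Gata6, bright at a mean of 7.07 in IVF embryos, was lower without overlap in both clone classes. Hnf4a, dim at -5.52 in IVF embryos, was higher without overlap in siCont clones.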

How the data were processed

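Single-colour Agilent arrays measured amplified RNA of 12 single mouse morulae. Per the file headers, the authors scanned intensity with Agilent Feature Extraction 10.5.1.1 on an mm9 grid, subtracting background and detrending within the array without scaling between arrays. The authors' deposited value table is log2, and by its values each column is that signal on a log2 scale with an array-wide offset, centred by probe. The basis of the offset is unknown. Column medians ran from -1.621 to 0.745.

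Here, outlier spots were left out, spots of a probe averaged, and values were the log2 processed signal minus the 75th percentile of the array. No spot was saturated. Probes (24840 of 41174) passed if at least 3 of the 4 arrays of 1 class had them well above background, and the passing probe with the highest mean stood for a gene. Accessions named 26888 probes (65.3%) through RefSeq for GRCm38.p6. All 12 arrays were fitted in limma 3.58.1 (R 4.3.3), with means for siXist, siCont, male IVF and female IVF, eBayes (8 residual degrees of freedom), two-sided tests and Benjamini-Hochberg over 19038 features (13537 with a symbol), called under 0.05. IVF is the mean of both sexes. The number of arrays limits the precision. The fit was tested on simulated data.

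The 10 genes are named throughout, with up to 3 genes of other lists by the smallest p for siCont against IVF, and the 1 most alike gene each (1 of these is not reported here). Members and lists were chosen with earlier results of these data known. The alternatives used quantile normalisation with or without normexp (offset 50), another percentile, the authors' table, filters, a floor, the mean of probes, array weights, the samples or sexes fitted, a trend, a replicate block and leaving out arrays. Figures used matplotlib 3.10.9.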

Additional observations from a re-analysis of the deposited data

Results flagged for a closer look

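In classes of 4, a value was looked at again when its gap to the nearest of the others, divided by the range of the class, exceeded Dixon's 95% critical value. Chance gives about 1 such value in 20 classes, and 3 of the 30 classes of the 10 genes held one. Sfmbt2 was -4.46 in siXist clone 3, against 2.57 in the nearest siXist clone (ratio 0.95). Jade1 was 1.77 in siCont clone 4, against 3.11 in the nearest siCont clone (ratio 0.88). Slc38a4 was -7.81 in siCont clone 3, where it was not well above background, against 1.17 in the nearest siCont clone (ratio 0.83).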

How the results depend on the processing

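The 40 differences of the 10 genes were recomputed in 1070 values: 955 kept their direction and side of the threshold, 52 (of Mbnl2) kept the direction and lost the call, 0 gained a call, and 63 changed sign, none of them called. Sign changes touched 20 differences. The cause was not tested. Slide as a block was not run, since each slide holds 1 class. Brightness limits Smoc1, Slc38a4, Otx2 and the dimmer probes of Slc38a4, Mbnl2 and Runx1, whose lowest values were not well above background.

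The number of the 10 genes called, 1 against IVF embryos, became 0 for both clone classes with normexp and quantile normalisation, quantile alone, the bright-probe percentile, the authors' table, no filter, the stricter filter, the mean of probes, only the groups compared, male IVF embryos only, the replicate block, and both clone arrays numbered 3 left out. For all clones it became 0 with the authors' table, the mean of probes, male IVF embryos, the block and both arrays out. Leaving out 1 array gave 0 to 1 in each of these comparisons.

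Among all features, siXist against siCont clones gave 2 calls. It gave 0 (normexp), 4 (quantile), 19 (authors' table), 14 (only the groups compared), 5 (1 IVF mean) and 15 (both arrays 3 out), and 8 to 59 on leaving out 1 array. For siCont clones against IVF embryos, 78 calls became 39 (stricter filter), 19 (male IVF) and 41 (both out), and 33 to 101 without 1 array. For siXist clones against IVF embryos, 116 became 42 (authors' table), 51 (stricter filter), 229 (array weights), 21 (male IVF) and 52 (both out), and 38 to 144. For all clones, 176 became 98, 106, 344, 24 and 107 in the same settings, and 59 to 172. With the replicate number as a block the counts were 0, 11, 12 and 43 in that order of comparisons. The deviations of same-numbered embryos of different classes gave 12 correlations between -0.153 and 0.064. The 36 pairs with other numbers gave -0.163 to 0.16. With 4 arrays per class these cannot show whether a number shares a day, donor or culture drop, and the labels do not say. The reported fit has no such block. The authors' table shifted the median of all features to 0.93 (siXist minus siCont), -1.13 (siCont minus IVF), -0.19 (siXist minus IVF) and -0.65 (all clones minus IVF), and differences in it are read against these.

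Sign changes for siXist minus siCont: Mbnl2 0.04 (normexp), 0.08 (quantile), 0.01 (the bright-probe percentile), 0.91 (authors' table) and 1.12 (mean of probes). Etv6 gave 0.57 (authors' table), 0.09 (array weights) and 0.63 (both out), Tle3 0.52 and Runx1 0.35 (authors' table), Runx1 0.78 (mean of probes), and Sfmbt2 0.75 and Slc38a4 -0.52 (both out). For siCont minus IVF, the authors' table gave Gab1 -0.9, Jade1 -0.37, Tle3 -0.77 and Runx1 -0.73, the mean of probes Runx1 -0.85, and both arrays out Smoc1 0.46 and Slc38a4 0.21. For siXist minus IVF, Slc38a4 was 0.63 (mean of probes) and Tle3 0.07 (both out). For all clones minus IVF, the authors' table gave Gab1 -0.21, Smoc1 -0.07, Tle3 -0.51 and Runx1 -0.55, male IVF Tle3 -0.21 and Runx1 -0.04, and Runx1 was -0.07 (normexp), -0.06 (quantile) and -0.46 (mean of probes).

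Leaving out 1 array moved these differences across 0. For siXist minus siCont the ranges were -0.96 to 0.31 (Etv6), -0.02 to 0.83 (Gab1), -0.64 to 0.15 (Mbnl2), -0.93 to 2.77 (Otx2), -1.83 to 0.64 (Sfmbt2), -0.78 to 2.82 (Slc38a4) and -1.31 to 0.01 (Tle3). For siCont minus IVF they were -0.17 to 0.53 (Gab1), -3.4 to 0.21 (Slc38a4), -1.04 to 0.46 (Smoc1) and -0.16 to 1.09 (Tle3). For siXist minus IVF they were -1.35 to 0.2 (Slc38a4) and -0.66 to 0.34 (Tle3), and for all clones minus IVF -0.18 to 0.19 (Runx1), -0.04 to 1.02 (Smoc1) and -0.19 to 0.43 (Tle3).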
